A study of Mus musculus with 12 samples.

Results

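The colony stimulating factors and their receptors were followed in mouse skin after wounding. Members were all probe sets whose RefSeq accession maps to the ligand genes Csf1, Csf2 and Csf3 or to the receptor genes Csf1r, Csf2ra, Csf2rb, Csf2rb2 and Csf3r. All 8 genes were measured, by 9 probe sets, out of 909 named genes and 1246 probe sets in the table. Csf1 had 2 probe sets, called a_at and s_at here after the ends of their identifiers, and each other gene had 1. The array study compared wounded with non-wounded epidermis, to find genes that change in keratinocytes after wounding. There were 4 non-wounded samples and 8 wounded ones, of which 1 was taken 0 h, 2 were taken 30 min, 4 were taken 2 h and 1 was taken 4 h after wounding. All samples carry B6 in their titles and no other allele or agent. Neither age nor sex is given.

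The samples' material is stated in 2 ways. The labels name dendritic epidermal T-cells (DETC, the gamma delta T cells of mouse epidermis), while the study's design text speaks of RNA from whole epidermis. The non-wounded means were 12.08 for Lgals7, a keratinocyte galectin, 10.78 for Cd74, the invariant chain of antigen-presenting cells, and 7.86 for Cd207, the Langerhans cell lectin langerin. Klrk1, a receptor carried by these T cells, averaged 2.38, close to the lowest value in any sample, which ran between 1.76 and 2.13. The other measured T cell markers averaged 2.47 (Cd69), 3.13 (Il2ra), 4.21 (Il7r), 4.77 (Cd2) and 5.09 (Il2rb) in the non-wounded samples. All levels are log2 values from RMA, which adjusts background, equalises arrays and combines the probes of a set, and levels of different probe sets are not compared with each other. In bulk RNA, fewer cells of a type and less RNA per cell cannot be told apart.

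Colony stimulating factors are secreted cytokines that control the production, survival and activation of myeloid cells. CSF1 binds CSF1R, a receptor tyrosine kinase of macrophages and Langerhans cells. CSF2 (GM-CSF) binds the CSF2RA chain, which signals with the common beta chain CSF2RB, shared with the receptors for IL-3 and IL-5. Mice carry a further, closely similar beta chain, CSF2RB2, which serves IL-3. CSF3 (G-CSF) binds CSF3R, a receptor related to gp130 that acts mainly in neutrophils and their precursors.

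Promoter sequences of 300 bases, from 250 before to 50 after the RefSeq transcript start, were found for 5 of the 8 genes: Csf1, Csf2, Csf2ra, Csf2rb2 and Csf3r. The 4 printed here belong to the 3 receptor genes with an entry, whose values at 30 min or 2 h are given in full below, and to Csf1, the ligand gene with 2 probe sets. They are from RefSeq on GRCm38.p6: Csf2ra from chr19:61228369-61228668 on the minus strand, Csf2rb2 from chr15:78305672-78305971 on the minus strand, Csf3r from chr4:126024409-126024708 on the plus strand and Csf1 from chr3:107760420-107760719 on the minus strand. Capitals mark matches to GAGGAA, a core bound by ETS-family factors (read as TTCCTC where it lies on the opposite strand), and, in Csf3r and Csf1, a match to the NF-kappaB consensus.
Csf2ra promoter: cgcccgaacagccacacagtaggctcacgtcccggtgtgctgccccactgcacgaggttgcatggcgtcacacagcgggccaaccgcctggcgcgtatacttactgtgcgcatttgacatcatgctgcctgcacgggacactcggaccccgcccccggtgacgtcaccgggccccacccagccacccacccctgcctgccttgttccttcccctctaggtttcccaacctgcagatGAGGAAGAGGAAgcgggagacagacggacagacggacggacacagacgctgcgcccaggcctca
Csf2rb2 promoter: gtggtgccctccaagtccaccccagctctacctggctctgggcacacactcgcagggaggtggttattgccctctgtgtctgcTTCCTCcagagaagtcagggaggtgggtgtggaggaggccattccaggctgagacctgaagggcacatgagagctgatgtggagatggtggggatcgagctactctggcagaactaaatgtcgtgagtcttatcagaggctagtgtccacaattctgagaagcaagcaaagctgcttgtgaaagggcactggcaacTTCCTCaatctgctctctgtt
Csf3r promoter: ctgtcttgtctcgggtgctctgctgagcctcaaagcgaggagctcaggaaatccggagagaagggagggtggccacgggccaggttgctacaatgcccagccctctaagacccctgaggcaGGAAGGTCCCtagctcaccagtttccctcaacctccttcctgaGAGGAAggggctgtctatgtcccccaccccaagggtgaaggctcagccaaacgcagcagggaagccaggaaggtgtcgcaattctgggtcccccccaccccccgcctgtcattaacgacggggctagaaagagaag
Csf1 promoter: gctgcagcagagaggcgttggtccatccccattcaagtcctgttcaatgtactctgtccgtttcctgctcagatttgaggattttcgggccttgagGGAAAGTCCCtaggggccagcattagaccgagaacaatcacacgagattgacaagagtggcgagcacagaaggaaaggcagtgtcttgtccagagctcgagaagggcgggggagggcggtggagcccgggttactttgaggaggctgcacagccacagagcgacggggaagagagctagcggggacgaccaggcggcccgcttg

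Matches were sought on both strands. GAGGAA occurred 2 times in direct succession in the Csf2ra promoter, with first bases at positions -14 and -8 from the start. It occurred on the opposite strand at -167 and 30 in Csf2rb2 and on the printed strand at -86 in Csf3r. Csf1 and Csf2 had none, and 28.1% of the 32544 distinct promoters of this length held it. The NF-kappaB consensus, present in 8.49% of these promoters, was found on the opposite strand at -154 in Csf1 and at -129 in Csf3r. No match overlapped a match to another motif. None of the 5 promoters held TGANTCA (AP-1, 7.79% of promoters), TTNCGNAA (C/EBP, 2.49%) or TATAAA (13.6%) in this window. These matches describe the letters only.

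The samples numbered 1 stood apart from the rest. Log2 values over all probe sets had an SD between 1.55 and 1.85 in the 5 samples numbered 1, against 2.19 to 2.30 in the 7 samples numbered 2 to 4. The samples at 0 h and 4 h are both numbered 1. Csf1 (a_at) was higher in every sample numbered 1 (7.61 to 8.36) than in every other sample (6.56 to 7.23), as were 26.3% of all probe sets. Csf1r was lower in every sample numbered 1 (5.29 to 7.22) than in the others (7.56 to 7.95), as were 17.6% of all probe sets. The other 7 member probe sets overlapped between the samples numbered 1 and the others. Same-numbered samples are therefore set side by side below. Nothing in the labels tells if replicates are different mice. The p-values therefore refer to the variation among these samples, possibly only technical, and their precision is limited by how many arrays there were.

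No colony stimulating factor or receptor passed the test at 2 h or at 30 min. At 2 h against non-wounded, 0 of the 9 probe sets had an adjusted p under 0.05 in limma, against 0.241% of all probe sets (3 of 1246). At an unadjusted p under 0.05 there was 1, Csf2rb, against 4.65% of all. This fit takes no account of the sample numbers. In limma with the replicate number as a block, Csf2rb, Csf2rb2, Csf3r and Csf1 (s_at) had an unadjusted p under 0.05. Their values were 0.00103, 0.0337, 0.0360 and 0.0395, against 13.8% of all probe sets under 0.05, and no member passed after adjustment. At 30 min against non-wounded, 0 of the 9 passed, against 0% of all probe sets, and 2 had an unadjusted p under 0.05, Csf2ra and Csf3r, against 5.06% of all. Between 2 h and 30 min, 0 of the 9 passed, again against 0% of all probe sets, and Csf2ra alone had an unadjusted p under 0.05, against 2.17% of all. No member separated the 4 samples at 2 h from the 4 non-wounded samples without overlap, whereas 2.01% of all probe sets did so in the higher and 2.73% in the lower direction. The values follow by role.

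**Figure D1:**
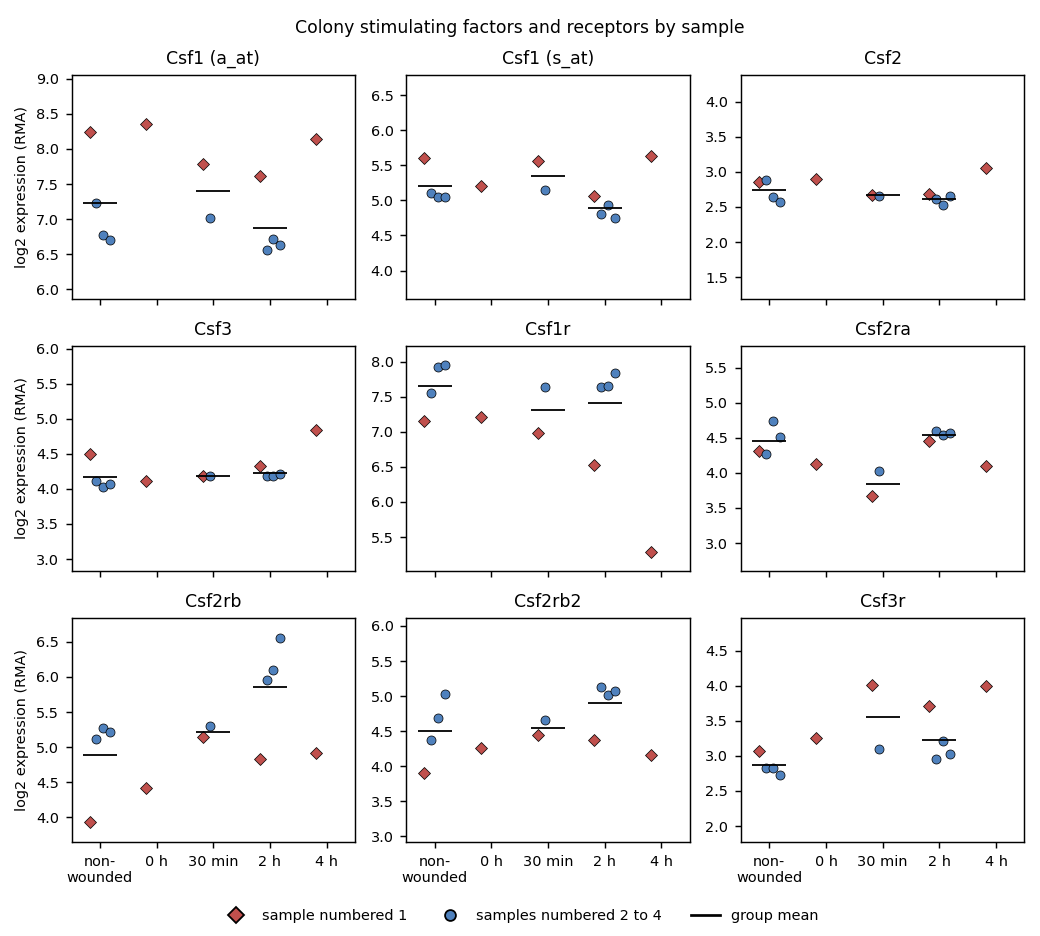
Log2 expression (RMA, vertical axes, each spanning the same number of log2 units with its own centre) of the 9 member probe sets in each of the 12 samples, by group in time order. Red diamonds are samples numbered 1, blue circles samples numbered 2 to 4, and black lines the means of groups with over 1 sample. Csf2rb at 2 h lies above the non-wounded sample of the same number in all 4 pairs, Csf2ra at 30 min (3.67 and 4.03) lies below all non-wounded and 2 h samples, and Csf1r at 4 h (5.29) lies below every other sample.

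Among the ligands, Csf1, the macrophage growth factor, had the same direction in both of its probe sets. Csf1 (a_at) read 7.61, 6.56, 6.71 and 6.64 in the 2 h samples numbered 1 to 4, against 8.24, 7.23, 6.77 and 6.70 in the non-wounded samples of the same numbers. Csf1 (s_at) read 5.06, 4.80, 4.93 and 4.75 in the 2 h samples, against 5.61, 5.10, 5.04 and 5.05 in the non-wounded samples. Each 2 h sample was lower than its same-numbered partner in both probe sets, which held for 11.6% of all probe sets, while the 2 groups as a whole overlapped. In the samples numbered 2 to 4 the s_at values at 2 h all lay below the non-wounded ones, as did 10.4% of all probe sets. The pair differences were -0.63, -0.67, -0.06 and -0.06 for the a_at probe set, and -0.55, -0.30, -0.11 and -0.30 for the s_at probe set.

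The fitted difference of the 2 h from the non-wounded mean was -0.35 for Csf1 (a_at) (SE 0.38, 95% interval -1.21 to 0.50, limma adjusted p = 0.998) and -0.31 for Csf1 (s_at) (SE 0.19, 95% interval -0.73 to 0.10, limma adjusted p = 0.998). In this fit, which takes no account of the sample numbers, neither was distinguishable from the spread between samples. Without the non-wounded sample numbered 1 the differences were -0.02 (a_at) and -0.18 (s_at), and without the 2 h sample numbered 1 they were -0.60 and -0.37. At 30 min Csf1 (a_at) read 7.79 and 7.01 and Csf1 (s_at) 5.56 and 5.14, within the non-wounded range in both. The s_at values at 2 h all lay below those at 30 min, as did 1.69% of all probe sets, with a fitted difference of -0.46 (SE 0.23, limma adjusted p = 0.980). The 2 probe sets correlated at r = 0.752 over the 7 samples numbered 2 to 4, as a description, since they measure 1 gene in the same RNA.

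Csf2 and Csf3, the ligands for the granulocyte-macrophage and granulocyte lineages, differed less. Csf2 read 2.68, 2.61, 2.52 and 2.66 in the 2 h samples numbered 1 to 4, against 2.85, 2.89, 2.65 and 2.57 in the non-wounded samples, and 2.67 and 2.66 at 30 min. Its groups overlapped, and the 95% interval of the difference between 2 h and non-wounded was -0.44 to 0.19 around -0.12. All its readings lay between 2.52 and 3.05, where RMA values carry no detection call, so a level below detection is not distinguished from a low one.

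Csf3 read 4.32, 4.18, 4.18 and 4.22 at 2 h, against 4.50, 4.11, 4.03 and 4.07 in the non-wounded samples, and 4.18 in both 30 min samples. The fitted difference at 2 h was 0.05 (95% interval -0.29 to 0.39, limma adjusted p = 0.998). In the samples numbered 2 to 4 the 2 h values (4.18 to 4.22) lay above the non-wounded ones (4.03 to 4.11), as did 14.7% of all probe sets. The pair numbered 1 went the other way, by -0.17. Giving all samples the same median and SD turned the pair numbered 4 to -0.05 as well, so no direction is given for Csf3.

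Among the receptors, Csf2rb, the common beta chain, had the largest difference between 2 h and non-wounded of the 9 probe sets. It read 4.83, 5.95, 6.11 and 6.55 in the 2 h samples numbered 1 to 4, against 3.94, 5.11, 5.28 and 5.22 in the non-wounded samples of the same numbers. The 2 h sample was higher in all 4 pairs, by 0.89, 0.84, 0.83 and 1.34, which held in direction for 13.4% of all probe sets. Without the samples numbered 1 the groups did not overlap, as in 14.7% of all probe sets in this direction, whereas with them they did, because the 2 h sample numbered 1 lay below the other non-wounded samples.

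Over all samples the difference in Csf2rb was 0.97 (SE 0.40, 95% interval 0.07 to 1.88), with an unadjusted p of 0.0372 and a limma adjusted p of 0.876. With the samples numbered 2 to 4 alone it was 1.00 (SE 0.16, limma adjusted p = 0.0284), and in that fit 3.05% of all probe sets passed and Csf2rb was the only member. Giving these samples the same median and SD left it at 0.84 (limma adjusted p = 0.0421), where 3.37% of all probe sets passed. With the replicate number as a block the difference was 0.97 (SE 0.20, limma adjusted p = 0.0643), where 1.36% of all probe sets passed, and with array weights 0.90 (limma adjusted p = 0.00558), where 10.4% of all probe sets passed. Repeated quantile normalization with the replicate block gave 0.90 (SE 0.24, limma adjusted p = 0.221), where 13 of 1246 probe sets passed. The size was thus similar in each of these fits. The call depended on how the samples numbered 1 were treated, and the adjusted p also on the normalization. Over all alternatives the difference lay between 0.66 and 1.32, and the adjusted p between 0.00558 and 1.00.

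Csf2rb was less uniform at the other times. The 30 min samples read 5.14 and 5.30, against 3.94 and 5.11 in the non-wounded samples numbered 1 and 2. These pair differences, 1.21 and 0.19, were too unlike for the fitted 0.34 (SE 0.49, limma adjusted p = 0.810) to describe both. From 30 min to 2 h the pair numbered 2 differed by 0.65 and the pair numbered 1 by -0.31.

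Csf2rb2, the second beta chain, is the neighbour of Csf2rb on chromosome 15 and closely similar in sequence, so RNA of one gene may contribute to the probe set of the other. It read 4.38, 5.14, 5.02 and 5.07 at 2 h, against 3.90, 4.37, 4.69 and 5.03 in the non-wounded samples. The pair differences were 0.48, 0.76, 0.32 and 0.04, all above 0, but the last became -0.12 when all samples were given the same median and SD. The fitted difference was 0.40 (SE 0.27, 95% interval -0.20 to 1.00, limma adjusted p = 0.998), and the groups overlapped. At 30 min Csf2rb2 read 4.44 and 4.66, within the non-wounded range. Over the 7 samples numbered 2 to 4 the 2 beta chains correlated at r = 0.710, a description of samples from 3 groups.

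Csf2ra, the GM-CSF binding chain, was lowest at 30 min. It read 3.67 and 4.03 at 30 min, against 4.31, 4.27, 4.75 and 4.51 in the non-wounded samples, and 4.45, 4.60, 4.54 and 4.58 in the 2 h samples. The 30 min samples lay below every non-wounded sample, as in 5.14% of all probe sets, and below every 2 h sample, as in 3.77% of all probe sets. The fitted difference of 30 min from non-wounded was -0.61 (SE 0.20, 95% interval -1.06 to -0.16), with an unadjusted p of 0.0129 and a limma adjusted p of 0.735. The pair differences were -0.64 and -0.24 for numbers 1 and 2.

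The difference of 2 h from 30 min in Csf2ra was 0.69 (SE 0.20, 95% interval 0.24 to 1.14, limma adjusted p = 0.621), and both comparisons share the 30 min samples. At 2 h Csf2ra differed from non-wounded by 0.08 (95% interval -0.28 to 0.45), with pair differences on both sides of 0. The lone samples read 4.13 at 0 h and 4.11 at 4 h, both just below the non-wounded range. Csf2, the ligand, was also below its same-numbered non-wounded sample in both pairs at 30 min, by -0.18 and -0.23, within the non-wounded range.

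Csf1r, the receptor for CSF1 and IL-34, was close to its non-wounded level in the replicated groups. It read 6.52, 7.64, 7.65 and 7.84 at 2 h, against 7.15, 7.56, 7.92 and 7.95 in the non-wounded samples, and 6.98 and 7.65 at 30 min. The groups overlapped, and the fitted difference at 2 h was -0.23 (SE 0.32, 95% interval -0.96 to 0.49, limma adjusted p = 0.998). The pair numbered 1 had the largest difference at 2 h, -0.63, and the other 3 pairs lay between -0.28 and 0.08. Relative to the other probe sets of its own sample, Csf1r stood at the 86.4 to 88.7 percentile at 2 h and at the 85.1 to 88.8 percentile in the non-wounded samples.

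Csf3r, the G-CSF receptor, was above its same-numbered non-wounded sample in all 4 pairs at 2 h, as were 13.4% of all probe sets. It read 3.72, 2.96, 3.22 and 3.02 at 2 h, against 3.08, 2.83, 2.83 and 2.73 in the non-wounded samples, so that the groups overlapped through the non-wounded sample numbered 1. In the samples numbered 2 to 4 they did not overlap, as in 14.7% of all probe sets. Once all samples shared a median and SD they did, with 3.10 in the 2 h sample numbered 2 against 3.11 in the non-wounded sample numbered 3. The pair differences were 0.64, 0.13, 0.39 and 0.29, or 0.59, 0.10, 0.25 and 0.04 after that scaling. The fitted difference was 0.36 in the deposited values (SE 0.24, 95% interval -0.18 to 0.91, limma adjusted p = 0.998). At 30 min it read 4.01 and 3.09, above all non-wounded samples, as were 2.49% of all probe sets. The fitted difference at 30 min was 0.69 (SE 0.30, 95% interval 0.02 to 1.35, unadjusted p = 0.0446, limma adjusted p = 0.735). Most of it came from the pair numbered 1, which differed by 0.93, against 0.27 in the pair numbered 2.

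**Figure D2:**
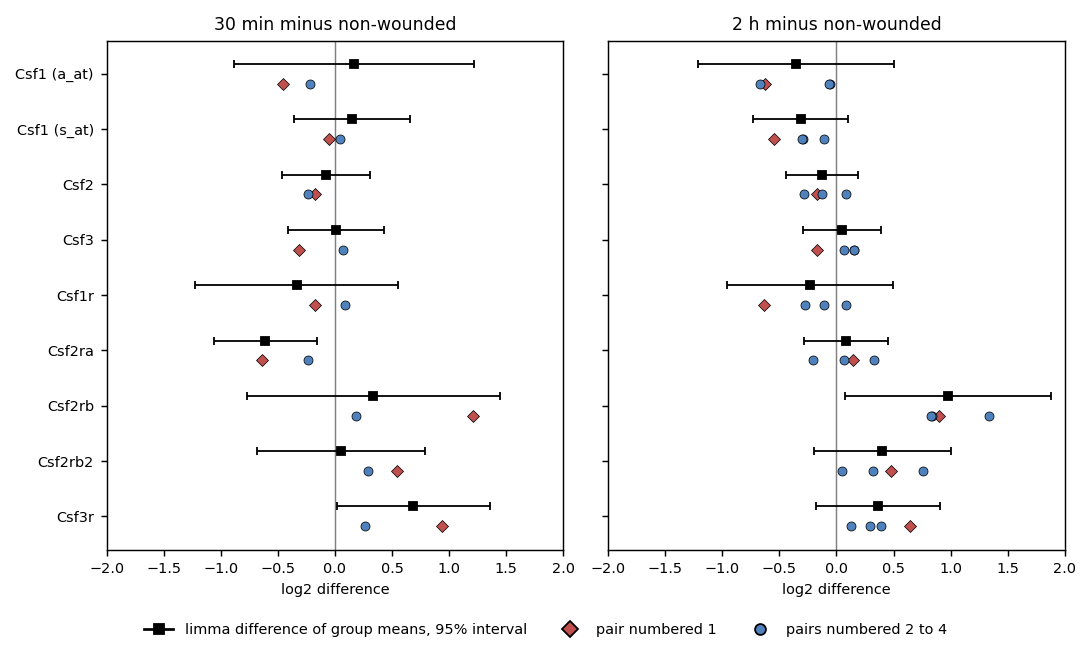
Log2 differences (horizontal axes) of 30 min (left panel) and 2 h (right panel) from non-wounded for the 9 member probe sets. Black squares with bars are limma differences of group means with 95% intervals, red diamonds the pair numbered 1 and blue circles the other same-numbered pairs. At 2 h the 4 pairs of Csf2rb lie between 0.83 and 1.34, at 30 min both pairs of Csf2ra lie below 0, and both pairs of Csf3r lie above 0.

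The samples at 0 h and 4 h have no replicate, and their values were described with no test. At 0 h, 1 of the 9 probe sets was outside the non-wounded range and 1 or more from the non-wounded mean. This was Csf1 (a_at), at 8.36 against a non-wounded range of 6.70 to 8.24, a difference of 1.12 from the mean. In the higher direction 0.963% of all probe sets met this rule, and in the lower direction, where no member did, 5.38%. Against the non-wounded sample numbered 1, which is the sample of its own number, Csf1 (a_at) at 0 h differed by 0.12, and no member differed from that sample by 1 or more, against 0.321% of all probe sets above and 0.562% below it. The other Csf1 probe set, s_at, read 5.20 at 0 h, within its non-wounded range of 5.04 to 5.61. It differed by -0.002 from the non-wounded mean and by -0.41 from the non-wounded sample numbered 1. Csf2rb at 0 h read 4.42, between the non-wounded sample numbered 1 and the others, and Csf1r read 7.22, against 7.15 in the non-wounded sample numbered 1.

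At 4 h, 2 of the 9 probe sets met the same rule, Csf1r in the lower and Csf3r in the higher direction. Csf1r read 5.29 at 4 h, against 7.15, 7.56, 7.92 and 7.95 in the non-wounded samples, a difference of -2.36 from their mean. In the lower direction 17.3% of all probe sets met the rule. Against the non-wounded sample numbered 1 the difference was -1.86, the 19th lowest of the 1246 probe sets, where 8.51% were lower by 1 or more. It was -1.94 after all samples were given the same median and SD, where 8.99% were lower by 1 or more. In the other direction, no member was higher than that sample by 1 or more in the deposited values, against 3.29% of all probe sets. After that scaling Csf2rb was, by 1.13, against 6.5% of all probe sets. Within its own sample Csf1r stood at the 71.7 percentile at 4 h, against 85.1 to 88.8 in the non-wounded samples.

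Csf3r read 3.99 at 4 h, against 2.73 to 3.08 in the non-wounded samples, a difference of 1.13 from the mean and of 0.91 from the non-wounded sample numbered 1. In the higher direction 6.18% of all probe sets met the rule. The 4 h value was close to the 4.01 of the 30 min sample numbered 1. Csf3 at 4 h read 4.84, above the non-wounded range of 4.03 to 4.50, and Csf2rb read 4.91, within its range but 0.98 above the non-wounded sample numbered 1. Csf1 (a_at) read 8.14 at 4 h, -0.10 from the non-wounded sample numbered 1. Csf1 (s_at) read 5.63, just above its non-wounded range of 5.04 to 5.61 and 0.02 from the non-wounded sample numbered 1.

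Markers of the cells that carry these receptors were read beside the members. At 4 h, Cd207 read 7.96, against 7.11 in the non-wounded sample numbered 1, and Cd74 read 9.78, against 10.16. Of the 6 measured Langerhans and dendritic cell markers 3 were lower at 4 h, none by 1 or more, with a median difference of 0.17. Of the 8 measured monocyte and macrophage markers 3 were lower, with a median of 0.07, and none by 1 or more. The lowest differences on these lists were -0.38 and -0.16, and -0.28 and -0.38 once samples shared a median and SD, against -1.86 and -1.94 for Csf1r. Most of these markers had little room for such a fall. In the non-wounded sample numbered 1, whose lowest value was 1.96, the monocyte and macrophage markers read 2.65 (Clec4e) to 4.29 (Siglec1). Ly75, Clec10a and Ccr7, of the Langerhans and dendritic list, read 3.58 to 3.80 there. The part of these cells in the Csf1r value was not tested.

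Keratinocyte markers were low beside Csf1r in the 4 h sample. Of 7 measured, 6 were lower than in the non-wounded sample numbered 1 and 4 of them by 1 or more, with a median of -1.04. Once samples shared a median and SD, 5 were lower and 3 of them by 1 or more, with a median of -0.66, and Lgals7 was at 0.90, against -0.30 in the deposited values. The lowest was Il20rb, a subunit of the receptors for IL-20 family cytokines, at 4.93 against 7.92. The mean of the 7 markers was 7.12 at 4 h, between 7.35 and 9.26 in the 2 h samples, and between 8.32 and 9.54 in the non-wounded samples. Their part in the Csf1r value was not tested.

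**Figure D3:**
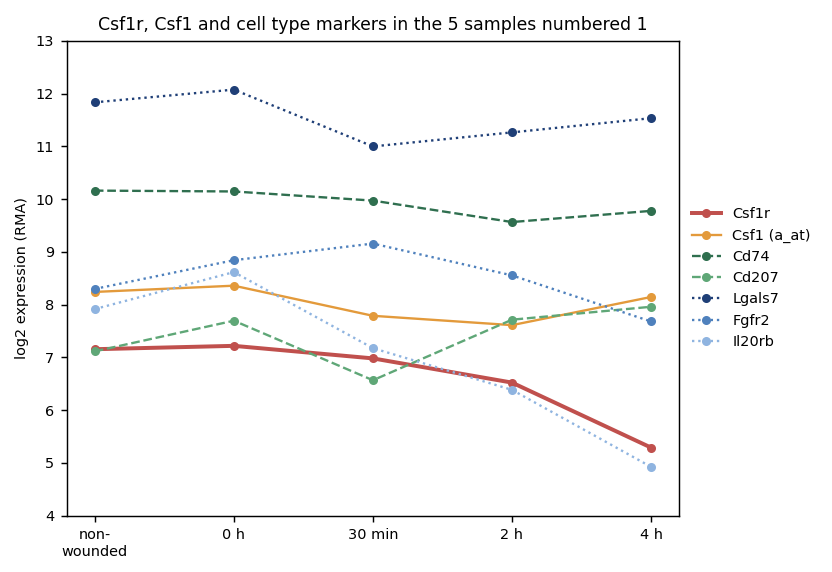
Log2 expression (RMA, vertical axis) of Csf1r, Csf1 (a_at), Langerhans cell markers (Cd74, Cd207) and keratinocyte markers (Lgals7, Fgfr2, Il20rb) in the 5 samples numbered 1, in time order with 1 sample per point. Csf1r reads 5.29 at 4 h, against 7.15 in the non-wounded sample, Il20rb reads 4.93 at 4 h, against 7.92, and Cd207 reads 7.96 at 4 h, against 7.11.

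At 2 h, no marker of another cell type passed the test over all samples. The 5 measured neutrophil markers, of 13 listed, were all above 0 in the difference of 2 h from non-wounded, with a median of 0.14. Of these, Cxcr2 was at 0.01 and Siglece at 0.02, and in the samples numbered 2 to 4 alone 4 were above and 1 below 0. Their mean level lay between 4.51 and 4.84 at 2 h and between 4.30 and 4.71 in non-wounded samples. In it Il1r2 was by far the brightest, at 9.49 in non-wounded samples. Of 8 monocyte and macrophage markers 6 were above 0, with a median of 0.16. Of 6 Langerhans and dendritic markers 5 were above 0, with a median of 0.15. Of 7 keratinocyte markers 6 were below 0, with a median of -0.47. All 7 dermal fibroblast and all 5 endothelial markers were above 0, with medians of 0.31 and 0.19, and the 6 T cell and 3 mast cell and basophil markers had medians of 0.10 and -0.07. With the replicate number as a block, 1 Langerhans and dendritic marker passed as higher and 1 keratinocyte marker as lower. Cd83, a maturation marker of dendritic cells, differed by 1.97 in the samples numbered 2 to 4 (limma adjusted p = 0.0104). Csf2rb passed in that fit as well, where 3.05% of all probe sets passed. The pair numbered 1 was unlike in the 2 genes. There Cd83 read 4.25 at 2 h against 4.17 in the non-wounded sample, and Csf2rb read 4.83 against 3.94. With all samples in the fit, the limma adjusted p of Cd83 was 0.354. The median difference of all 1246 probe sets was 0.03, and 679 of them were above 0. Once samples shared a median and SD the median was -0.06 and 457 were above 0. The marker counts at 2 h were made on the deposited values only. The part of these cell types in the Csf2rb value was not tested.

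Genes related to the members were examined as lists. Of the class III receptor kinases and ligands, the kin of Csf1r, 7 of 9 genes were measured and none passed at 2 h, with 2 above and 5 below 0 and a median of -0.13. Among them Pdgfb, a platelet-derived growth factor chain, averaged 5.85 ± 0.18 at 2 h and 6.81 ± 0.47 in non-wounded samples (SD, n = 4 each). Il34, the other ligand of CSF1R, was not among the named probe sets used here.

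The partners of the common beta chain were all measured. None of the 4 passed at 2 h, where the differences from non-wounded were 0.00 for Il3, -0.22 for its receptor chain Il3ra, -0.05 for Il5 and 0.09 for its receptor chain Il5ra. The median difference was -0.02 for these partners and 0.03 for all probe sets.

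Of the gp130-like receptors and their ligands, the kin of Csf3r, 9 of 18 genes were measured and none passed, with 6 above and 3 below 0 and a median of 0.22. Il6, an inflammatory cytokine, averaged 3.41 ± 0.51 at 2 h and 2.39 ± 0.28 in non-wounded samples (SD, n = 4 each), a difference of 1.01. Of the other haematopoietic cytokines and receptors, 4 of 10 were measured and none passed, with 1 above and 3 below 0 and a median of -0.22. Il15, a lymphocyte survival cytokine, averaged 4.35 ± 0.56 at 2 h and 5.13 ± 0.69 in non-wounded samples (SD, n = 4 each).

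Genes with the most similar pattern to each member were found by Pearson's r over the 7 samples numbered 2 to 4, which share groups and arrays. They were the best matches among the 909 named genes, members left out, and such a choice from many genes raises r. They are a description, with no p. For Csf2rb these were Areg, which encodes the epidermal growth factor receptor ligand amphiregulin (r = 0.981), Uap1, an enzyme of amino sugar metabolism (r = 0.976), and Il10, an anti-inflammatory cytokine (r = 0.975). Without the 2 samples farthest from the median the values were 0.931, 0.980 and 0.943. Csf3 read only between 4.03 and 4.22 in these 7 samples. Its nearest gene was Junb, an AP-1 subunit, at r = 0.964 and 0.975 without the 2 farthest samples. For Csf3r it was Hs3st2, a heparan sulfate sulfotransferase, at 0.976 and 0.949, and for Csf1r it was Bmp3, a bone morphogenetic protein, at 0.965 and 0.917.

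The other members had the following nearest genes. For Csf2 it was Gaa, the lysosomal alpha-glucosidase, at r = 0.983 but 0.733 without the 2 farthest samples. For Csf2ra it was Ybx1, a nucleic acid binding protein, at 0.961 but 0.653. For Csf2rb2 it was Il1r2, the decoy receptor for IL-1, at 0.939 but 0.756. The nearest to Csf1 (s_at) was Fgf22, a fibroblast growth factor, at 0.918 but 0.702. The nearest to Csf1 (a_at) was A4galt, a glycosyltransferase, at 0.914 and 0.854.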

How the data were processed

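Trizol-extracted total RNA was made into biotinylated cRNA for Affymetrix arrays, per the labels' protocols. The deposited values are on a log2 scale (judged from the values) and were made by the authors with RMA, per the submitters' processing notes; no source used here names the array or the software version. Probe sets were named by matching accessions to a RefSeq table of GRCm38.p6, which named 963 of 1246. Members and gene lists were chosen with earlier results of these data known. From each list of related genes the gene of smallest p at 2 h was named. Il34 and all partners of the common beta chain were named whatever their values.

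The test was limma 3.58.1 in R 4.3.3 (lmFit, eBayes) on the 12 samples, with 1 mean per group and nothing else in the model. P-values were adjusted by Benjamini-Hochberg over the whole table of 1246, with calls at 0.05; the fit was tested on simulated data. Groups and numbers came from the titles. Deviations of same-numbered 2 h and non-wounded samples correlated at 0.796, 0.449, 0.651 and 0.297 for numbers 1 to 4, all above 0.1, so the numbers were taken to pair the samples. The samples numbered 1 stood apart in both groups, which by itself raises such correlations, and different-numbered samples were not correlated. This check therefore cannot show that the samples numbered 2 to 4 are matched by number. Alternatives were the replicate block, scalings, filters, variance models and omitted samples. Promoters were searched in Python 3.11.15.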

Additional observations from a re-analysis of the deposited data

Results flagged for a closer look

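In 5 of 18 groups of 4 samples, a single sample lay far from the rest by Dixon's criterion. All 5 were samples numbered 1. Chance meets the criterion in about 1 of 20 independent groups, but these groups share the same arrays. The criterion was applied to the members only, so its share over all probe sets is not known. Of all probe sets, 26.3% were higher and 17.6% lower in every sample numbered 1 than in every other sample. Csf1 (a_at) read 7.61 in the 2 h sample numbered 1, against 6.56 to 6.71 in the other 2 h samples. Csf1r read 6.52 and Csf2rb2 read 4.38 in that same sample, against 7.64 to 7.84 and 5.02 to 5.14 in the others. In the non-wounded sample numbered 1, Csf1 (s_at) read 5.61, against 5.04 to 5.10 in the other non-wounded samples, and Csf2rb read 3.94, against 5.11 to 5.28.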

How the results depend on the processing

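At 2 h against non-wounded, 0 members passed over all samples and 1, Csf2rb, passed with the samples numbered 2 to 4 alone, with array weights, and with the samples numbered 2 to 4 each scaled to one median and SD (chosen after seeing the data, adjusted p = 0.0421). In these fits 38, 130 and 42 of 1246 probe sets passed, against 3 over all samples. Csf2rb missed the threshold with the replicate block (limma adjusted p = 0.0643), and with that block after repeated quantile normalization (0.221). It also missed it with a term for the samples numbered 1, likewise chosen after seeing the data (0.0541). The block changed no call of a member in any comparison, and its count was 0 in each. Leaving out each sample in turn left 0 to 0 members at 2 h, at 30 min and between them. At 0 h the count was 1, but 0 against the non-wounded sample numbered 1, unscaled or scaled, and 0 to 1 when each non-wounded sample was left out (0 without the sample numbered 3 or 4). At 4 h it was 2, but 1 (Csf1r) against the non-wounded sample numbered 1, 2 (Csf1r and Csf2rb) against it once scaled, and 2 to 3 when each was left out. At 30 min the median difference of the whole table was -0.09 once samples shared a median and SD, against 0.04 as deposited. No called value of a member changed sign. The cause of these changes was not tested. The small groups and the lack of detection calls limit what low readings such as those of Csf2 and Csf3r can show.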
